A study of Mus musculus with 4 samples.

Results

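The regions described here are the telomere-proximal ends of the mouse autosomes, the last 5 Mb of each chromosome as far as reads were placed. They were chosen by position alone: 100 kb bins were counted back from the largest read position of each chromosome over the 4 libraries, and chromosome 12 was left out. This gave 900 bins, 50 on each of 18 chromosome ends, among 24043 bins of 100 kb on autosomes 1 to 19 and 22869 on the 18 autosomes used. Of the 900 bins, 3 held no read in any library and 886 had a mean of at least 100 read positions. A bin is called by its distance from the end, so that the terminal bin is the last 100 kb and covers distances of 0 to 100 kb.

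The assay was ChIP-seq, chromatin immunoprecipitation followed by sequencing, here with an antibody to total histone H3 (Abcam AB1791), and each of 4 groups had 1 library. The reference group was untreated V6.5 embryonic stem (ES) cells of mixed C57BL/6 and 129 background, grown on irradiated embryonic fibroblasts and then for 2 passages on gelatin. A second group was the same ES line kept for 24 h in 10 uM SB431542, which blocks the kinase of TGF-beta type I receptors. The third was C2C12, a myoblast line, turned into myotubes by 48 h of culture with 2% horse serum. The fourth was 38B9, a pro-B cell line grown in 10% fetal calf serum. Each group is a single cell line, and the myotube and pro-B groups come from lines other than V6.5, so that cell type and cell line cannot be told apart. The libraries hold no RNA, so the labelled cell types were not checked against markers here.

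Mouse autosomes are telocentric: the centromere lies at one end, and the long arm runs to the distal telomere at the other. The sequence next to a telomere often holds segmental duplications and gene families with many similar copies, and the telomeric repeat itself is not part of a reference chromosome. Histone H3 is a core component of nucleosomes, so a total H3 library follows how much nucleosomal DNA was recovered from each place.

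The genes that lie last on the chromosomes are background for what these regions contain. In the RefSeq order of GRCm38.p6 the last protein-coding genes included Vmn2r129 on chromosome 4 and Vmn2r87, Vmn2r86 and Vmn2r85 on chromosome 10, which are vomeronasal receptor genes, and Mrgprd on chromosome 7, a receptor of sensory neurons. Others were Fgf14 on chromosome 14, a fibroblast growth factor homologous factor, Cr2 on chromosome 1, a complement receptor of B cells, Wls on chromosome 3, which carries Wnt proteins to the cell surface, and Csf2ra on chromosome 19, a cytokine receptor chain. These names come from another genome build than the reads (mm8), so no gene was placed on a bin and no level below belongs to a gene. No mm8 sequence was used here.

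Levels were counted as distinct read positions, with at most 1 read per position and strand, and divided by the median 100 kb bin of the same chromosome in the same library. A level of 1 is therefore the typical bin of that chromosome, and a gain or loss of a whole chromosome cancels out. No input DNA library was used here, so DNA copy number within a chromosome and H3 recovered per copy cannot be told apart. Distinct positions per library ran from 13102915 to 13852985, and the median bin held 392 to 723 positions depending on chromosome and library. All intervals are 95% intervals of counting error only, since PCR copies of a molecule were not marked, and they take the chromosome median as fixed. With 1 library per group no difference has a replicate check and no test between conditions was possible.

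The ends as a whole carried about the H3 level of the rest of the chromosome. The median end bin stood at 1.03 in untreated ES cells (quartiles 0.916 and 1.12), 0.985 with SB431542 (0.895 and 1.09), 0.974 in myotubes (0.871 and 1.07) and 1.03 in pro-B cells (0.861 and 1.26). The interquartile ranges of the bins overlapped in all 4 libraries, and the pro-B bins spread most, with a coefficient of variation of 0.328 against 0.202 to 0.211 in the others. Over all bins of the 18 autosomes the coefficient was likewise largest in pro-B cells, at 0.360 against 0.234 to 0.254.

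The opposite ends of the same chromosomes were lower. The first 5 Mb from the smallest read position, next to the centromere, had median levels of 0.922 in untreated ES cells, 0.946 with SB431542, 0.919 in myotubes and 0.855 in pro-B cells. Bins at or below a log2 level of -0.5 (0.707 times the typical bin) made up 7.58%, 7.36%, 8.92% and 9.36% of the telomere-proximal bins in that order. Over all bins the shares were 9.69, 8.29, 9.13 and 11.3%, and next to the centromere they were 21.0%, 18.2%, 21.4% and 29.6%. The telomere-proximal ends were thus near the genome's share of low bins, while the centromere-proximal ends were above it. High bins, at a log2 level of 0.5 or more, numbered 1, 1, 2 and 148 of the end bins, and the pro-B share of 16.5% stood beside 14.98% over all bins (3403 of 22711) (0.374, 0.762 and 1.12% in the other libraries).

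**Figure D1:**
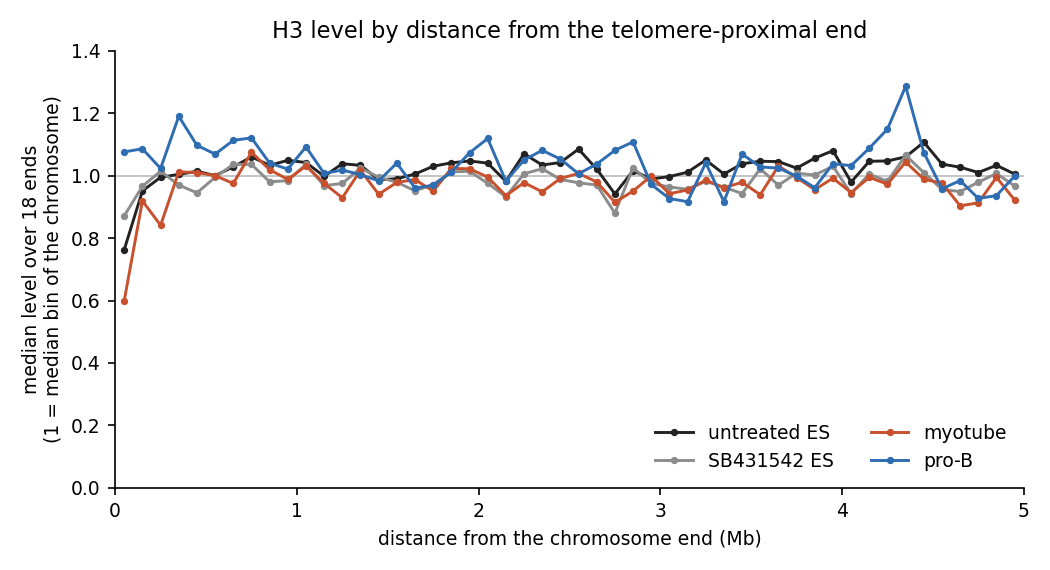
Median H3 level over 18 chromosome ends (1 = median bin of the chromosome) by distance from the end in Mb, in steps of 100 kb, with 1 line for each of the 4 libraries. The last 100 kb dips to 0.763 in untreated ES cells, 0.871 with SB431542 and 0.600 in myotubes, while the pro-B line is at 1.08 there.

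The departure from the typical level was concentrated in the last 100 kb. Over the 18 ends the terminal bin had a median level of 0.763 (SD over ends 0.328) in untreated ES cells, 0.871 (0.320) with SB431542, 0.600 (0.275) in myotubes and 1.08 (0.460) in pro-B cells. One bin further in, at 100 to 200 kb, the medians were 0.951, 0.966, 0.919 and 1.09. In both ES libraries and the myotube library the terminal step was the lowest of the 200 steps in the last 20 Mb. The next lowest step was 0.921 at 18500 kb in untreated ES cells, 0.880 at 2700 kb with SB431542 and 0.841 at 200 kb in myotubes. Summed over ends, the myotube level was still 0.806 at 100 to 200 kb and 0.819 at 200 to 300 kb. In pro-B cells the terminal step ranked 146 of 200 from the lowest.

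The terminal level ranged widely among chromosomes. On chromosome 13 the terminal bin (chr13:120514333-120614332) held 811 positions in untreated ES cells, 816 with SB431542, 564 in myotubes and 1032 in pro-B cells, which are levels of 1.42, 1.39, 1.04 and 2.00. On chromosome 10 (chr10:129857211-129957210) the counts were 229, 222, 189 and 291, with levels of 0.400, 0.382, 0.339 and 0.518. The end of chromosome 13 was thus above its chromosome's typical bin in all 4 libraries, and that of chromosome 10 below it in all 4. Chromosomes 1, 8, 10, 11, 14, 15 and 16 had terminal levels under 0.707 in each library, from 0.297 to 0.686.

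The share of reads with more than 1 place also differed among the ends. Reads aligned at exactly 2 places, which were not counted in the levels, made up 23.8% to 28.2% of the lines in the terminal bins of the 4 libraries, against 5.86, 5.92, 5.81 and 5.64% over all bins. In untreated ES cells the share was 35.6% to 51.6% at 8 ends (chromosomes 1, 2, 8, 10, 11, 16, 17 and 19) and 1.26% to 13.7% at the other 10 ends. The median terminal level in untreated ES cells was 0.557 at the first 8 ends and 1.13 at the other 10. The groups overlapped: chromosomes 14 and 15, with few 2-place reads, had levels of 0.502 and 0.662, while chromosomes 2, 17 and 19, with many, had 0.791, 0.735 and 0.729. The part of similar sequence copies in the low levels was not tested. Windows of 1 kb without a position in any library made up 10.3% of the terminal bins, 5.30% of all end bins and 6.60% of all bins.

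**Figure D2:**
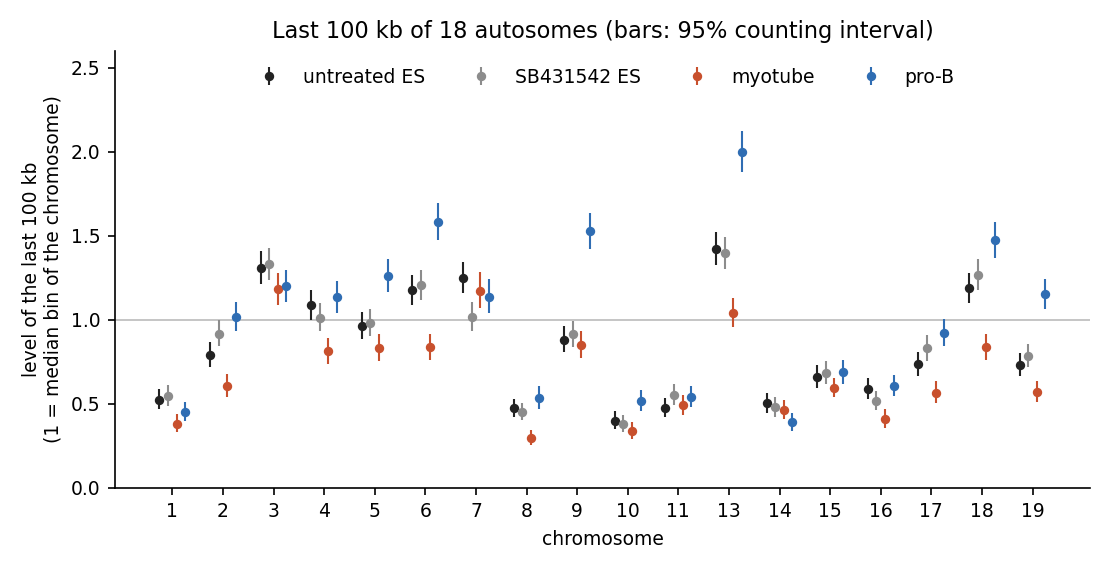
H3 level of the last 100 kb (1 = median bin of the chromosome) on each of 18 autosomes in the 4 libraries, as points with 95% counting intervals. Myotube points lie below the untreated ES points at every chromosome but 11, and pro-B points lie above them at 14 of 18.

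The terminal bin was lower in myotubes than in untreated ES cells at 17 of 18 ends, where 48.9% of all bins were below 1 and 51.0% above. Summed over the 18 ends, the level was 0.836 (0.819 to 0.854) in untreated ES cells and 0.671 (0.655 to 0.687) in myotubes, a ratio of 0.802 (0.776 to 0.828). The median log2 ratio over ends was -0.37, and the counting interval of the ratio lay below 1 at 11 ends. The exception was chromosome 11 (chr11:121698381-121798380), with 286 positions in untreated ES cells, 329 with SB431542, 265 in myotubes and 293 in pro-B cells and a myotube ratio of 1.03.

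The 3 ends past a log2 ratio of -0.5 (16.7% of the 18, beside 1.35% of all bins) were those of chromosomes 8, 16 and 18. On chromosome 8 (chr8:131983989-132083988) the terminal bin held 312 positions in untreated ES cells, 328 with SB431542, 163 in myotubes and 246 in pro-B cells, and the myotube log2 ratio was -0.68. On chromosome 18 (chr18:90635978-90735977) the counts were 678, 741, 451 and 740, with a log2 ratio of -0.51. On chromosome 16 (chr16:98152317-98252316) they were 335, 303, 228 and 358, with -0.52. At each of these 3 ends the myotube level was the lowest of the 4 and the pro-B level the highest, at 0.534, 0.607 and 1.47 on chromosomes 8, 16 and 18. That myotubes were below untreated ES cells there follows from the rule.

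The terminal ratio was also set against the other bins of the same end. It lay below their median at 17 of 18 ends, with a median difference of -0.25 on the log2 scale, and on chromosomes 1, 6, 13, 16, 17 and 18 it was the lowest bin of its end. On chromosomes 9, 14 and 15 the difference was within 0.01 and the terminal bin ranked 25 of 50, and on chromosome 11 it lay above by 0.08. Among the 200 steps of the last 20 Mb, the terminal step had the lowest median ratio of myotube to untreated ES cells, and the next lowest was -0.21 at 6500 kb. At the 8 ends rich in 2-place reads the median log2 ratio was -0.38 with 7 ends below 1, and at the other 10 ends it was -0.18 with 10 below 1. The lower myotube level was therefore measured at ends of both kinds.

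Within the last 1 Mb the difference became smaller with distance from the end. Summed over ends, the ratio of myotube to untreated ES cells was 0.798 (0.762 to 0.836) within 50 kb of the end, 0.806 (0.770 to 0.843) at 50 to 100 kb and 0.891 (0.865 to 0.919) at 100 to 200 kb. It was 0.885 (0.859 to 0.912) at 200 to 300 kb, 0.9496 (0.923 to 0.977) at 300 to 400 kb and 0.958 (0.932 to 0.986) at 400 to 500 kb. From 500 kb to 1 Mb it was 0.993 (0.981 to 1.01), an interval that includes 1. Further in it was lower again, at 0.970 from 1 to 2 Mb, 0.967 from 2 to 3 Mb, 0.945 (0.936 to 0.953) from 3 to 4 Mb, 0.951 from 4 to 5 Mb and 0.934 from 6 to 7 Mb. The bin at 200 to 300 kb includes a narrow excess on chromosome 9 in both ES libraries that is described further on.

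Pro-B cells went the other way in the same place. The terminal bin was above the untreated ES level in pro-B cells at 14 of 18 ends, where 55.5% of all bins were above 1 and 44.5% below, and the summed ratio was 1.19 (1.16 to 1.23). The median log2 ratio was 0.24, from -0.36 on chromosome 14 to 0.79 on chromosome 9, and the interval lay above 1 at 9 ends and below 1 at 1 end. Set against the other bins of the same end, the pro-B terminal ratio lay above their median at 12 ends and below it at 6. The median difference was 0.13 on the log2 scale. Among the 200 steps of the last 20 Mb the pro-B terminal step ranked 193 from the lowest, so it was not the most extreme. Another step within the last 5 Mb had a median of 0.29, and the summed pro-B ratio was 1.23 at 17 to 18 Mb. This comparison of pro-B and untreated ES cells and that of myotubes share the untreated ES library. Within 500 kb of the end the summed pro-B ratio stayed between 1.138 and 1.196 at each distance, so that no decline with distance was seen over this stretch. Over all bins of the 18 autosomes the summed pro-B ratio was 1.09. Pro-B levels are skewed upwards (mean 1.05 at a median of 1.00) and untreated ES levels downwards (mean 0.964 at a median of 1.00).

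Chromosomes 9 and 19 had the pro-B terminal bins past a log2 ratio of 0.5. They made up 11.1% of the 18 terminal bins, near the 12.4% over all bins. On chromosome 9 (chr9:123900624-124000623) the terminal bin held 514 positions in untreated ES cells, 532 with SB431542, 451 in myotubes and 793 in pro-B cells. On chromosome 19 (chr19:61221130-61321129) it held 446, 481, 315 and 642, a log2 ratio of 0.66. In both, the pro-B count stood above those of the other 3 libraries, though its place above untreated ES cells follows from the rule. At the chromosome 14 end (chr14:123862956-123962955) the order was reversed, with 276, 269, 250 and 214 positions.

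Compared directly, the terminal bin was lower in myotubes than in pro-B cells at 16 of 18 ends, where 53.5% of all bins were below 1 and 46.5% above. The median log2 ratio was -0.60, from -1.01 on chromosome 19 to 0.25 on chromosome 14. At 11 ends it was past -0.5 (61.1%, beside 14.0% of all bins). This was the largest terminal difference among the 4 comparisons.

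SB431542 left the terminal bins close to those of untreated ES cells. The summed level was 0.842 (0.824 to 0.859) with SB431542 and 0.836 (0.819 to 0.854) without, a ratio of 1.01 (0.976 to 1.04). By end, 11 were above and 7 below 1, with 55.1% of all bins above 1 and 44.8% below, and the median log2 ratio was 0.03. The lowest was chromosome 7 (chr7:145034035-145134034), with 691 positions in untreated ES cells, 557 with SB431542, 460 in myotubes and 519 in pro-B cells, a log2 ratio of -0.30. The SB431542 library was sequenced in another run (100804) than the other 3 (100623), so that treatment and run cannot be told apart.

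**Figure D3:**
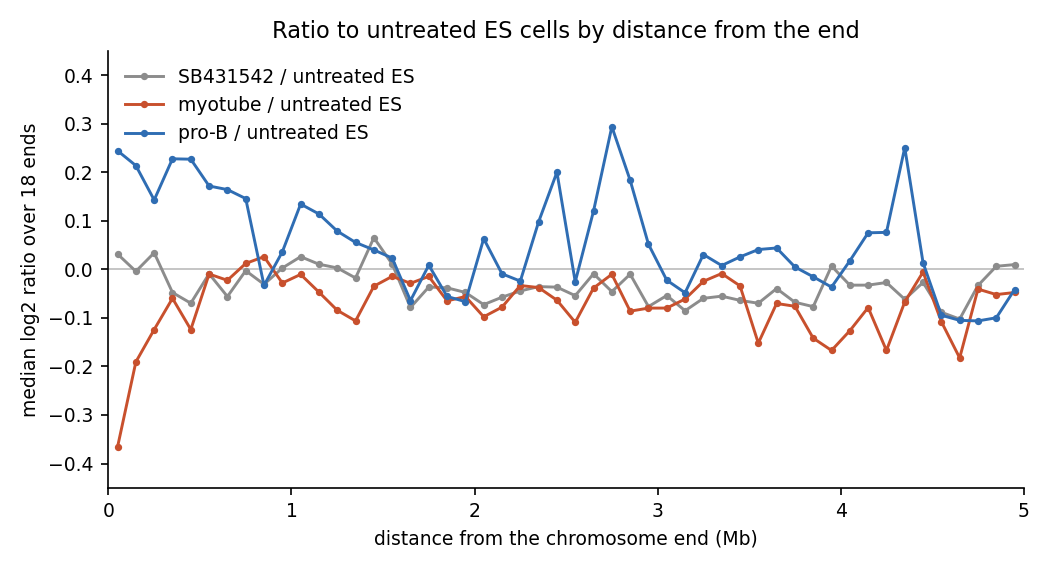
Median log2 ratio over 18 chromosome ends by distance from the end in Mb, in steps of 100 kb, for SB431542, myotube and pro-B, each against untreated ES cells. The myotube line is at -0.37 in the last step and the pro-B line at 0.24, while the SB431542 line is at 0.03.

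Over the full 5 Mb, bins were called higher or lower at an absolute log2 ratio of at least 0.5 (1.41-fold). With SB431542, 1 end bin was higher and 1 lower, and the backgrounds over all bins were 0.265% and 0.269%. Neither of these bins had a mean of 100 positions, and the median log2 ratio of the end bins was -0.04 against 0.02 over all bins. In myotubes no end bin was higher and 29 were lower (3.24%), with backgrounds of 1.38% and 1.35%, and the median was -0.07 against 0.01. Of the 29 lower bins, 18 lay on chromosome 8. Without that chromosome, 11 end bins were lower (1.3%), near the background of 1.35%, which includes chromosome 8.

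In pro-B cells 131 end bins were higher (14.6%) and 32 lower (3.57%) than in untreated ES cells, near the backgrounds of 12.4% and 3.48%. The median log2 ratio was 0.04 over the end bins and 0.04 over all bins. The next 5 Mb inwards had 70 higher (7.97%) and 64 lower bins and a median of -0.09, so that the ends lay above their neighbours. The median ratio of the end was above that of its own neighbour on 15 of 18 chromosomes. Myotube against pro-B gave 12 higher bins (1.34%, background 3.53%) and 153 lower ones (17.1%, background 14.0%). The split between higher and lower moved with the scaling: of the pro-B calls 80.4% were higher with chromosome medians, but 44.8% when each library was scaled to its autosomal total and 62.0% with median-of-ratios size factors. For myotube against pro-B these shares were 7.27%, 33.1% and 14.7%.

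The 2 ES libraries were the most alike pair across the end bins, as they were across all bins. Across 886 end bins Pearson's r of log2 levels was 0.929 for untreated and SB431542-treated ES cells, 0.777 for untreated ES cells and myotubes and 0.591 for untreated ES and pro-B cells. Across 22256 bins of the 18 autosomes it was 0.945, 0.785 and 0.687. Bins of a library share its depth and base composition and are not independent replicates, so these values are descriptions.

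**Figure D4:**
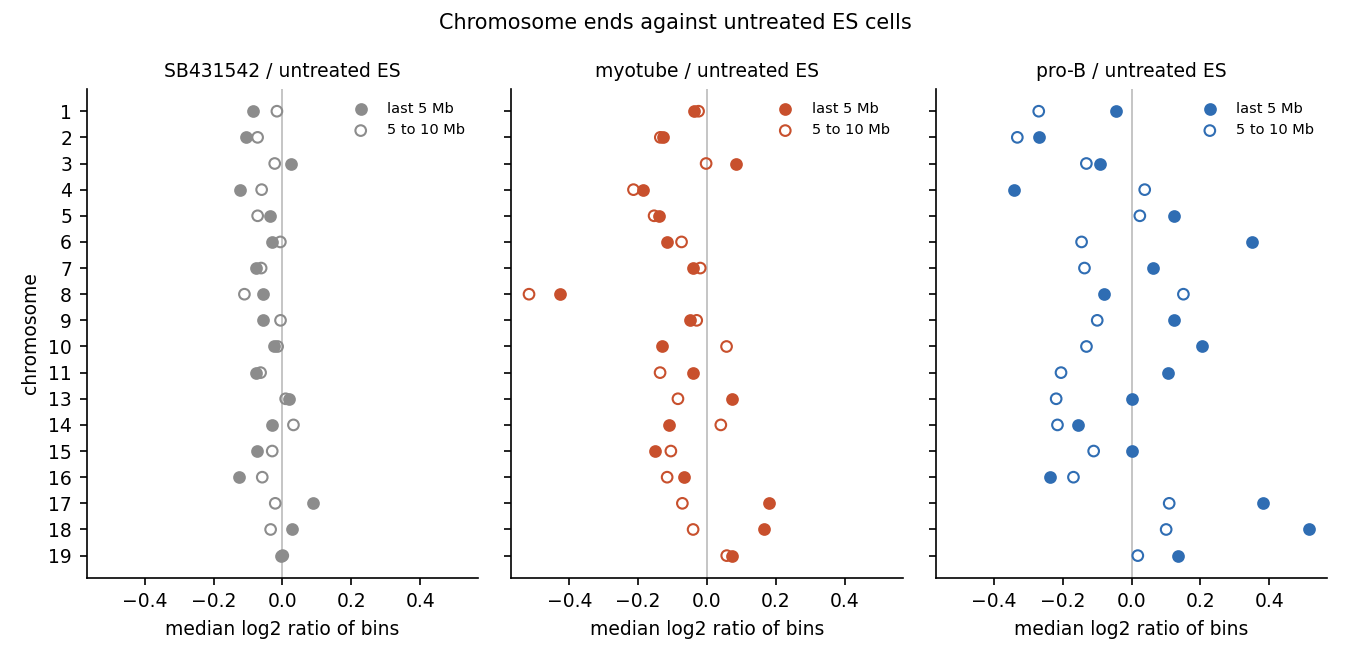
Median log2 ratio of the 100 kb bins of each chromosome end against untreated ES cells (x axis) for 18 autosomes (y axis), with filled points for the last 5 Mb and open points for the 5 Mb next to it. The chromosome 8 end and its neighbour are both low in myotubes, and the ends of chromosomes 17, 18 and 6 have high ratios in pro-B cells with neighbours at 0.11 or below.

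Among single ends, those of chromosomes 18, 17 and 6 had the highest median ratios of pro-B to untreated ES cells. The end of chromosome 18 had median bin levels of 0.840 in untreated ES cells, 0.831 with SB431542, 0.938 in myotubes and 1.23 in pro-B cells, and 46 of its 50 bins were above untreated ES cells in pro-B cells. Its summed pro-B ratio was 1.43 (1.41 to 1.46), and its median log2 ratio was 0.52 against 0.10 in the next 5 Mb. The end of chromosome 17 had levels of 0.858, 0.896, 0.933 and 1.08, and a summed ratio of 1.41 (1.39 to 1.44). The ends of chromosomes 17 and 18 were the lowest 2 in median level in untreated ES cells, and both stood above the typical bin in pro-B cells.

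The chromosome 6 end had median levels of 1.08 in untreated ES cells, 1.07 with SB431542, 0.999 in myotubes and 1.29 in pro-B cells. Its median pro-B log2 ratio was 0.35, against -0.15 in the next 5 Mb, so the difference changed sign over this border. In the last 500 kb of this chromosome the pro-B level was the highest of the 18 ends, at 1.73.

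The ends of chromosomes 4 and 2 had the lowest median ratios in pro-B cells. The chromosome 4 end had median levels of 1.05 in untreated ES cells, 0.972 with SB431542, 0.936 in myotubes and 0.794 in pro-B cells, a median log2 ratio of -0.34 against 0.04 in the next 5 Mb. The chromosome 2 end had 0.996, 0.922, 0.927 and 0.751, with -0.27 against -0.33 in the next 5 Mb. On chromosome 4, 11 of 50 end bins were called lower and 4 higher, and in the next 5 Mb 8 of 50 were lower and 8 higher. Over all bins 3.48% were lower and 12.4% higher. The summed pro-B ratio was 0.903 for the chromosome 4 end and 1.13 for its next 5 Mb. The outermost part of both ends went the other way: in the last 500 kb the summed pro-B ratio was 1.297 (1.235 to 1.362) on chromosome 4 and 1.12 (1.06 to 1.17) on chromosome 2, with all 5 bins above 1 on each.

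In myotubes the chromosome 8 end stood apart. Its median levels were 1.08 in untreated ES cells, 1.05 with SB431542, 0.820 in myotubes and 0.990 in pro-B cells, and none of its 50 bins was above untreated ES cells in myotubes. The summed ratio was 0.768 (0.755 to 0.781), and the median log2 ratio was -0.43, beside -0.52 in the next 5 Mb. More than 10 Mb from either end of this chromosome the summed myotube ratio was 1.17, the highest of the 18 chromosomes. The low level therefore ran on beyond the last 5 Mb, and a change in copy number along the chromosome and a change in H3 per copy cannot be told apart. The other 17 ends had median log2 ratios from -0.19 (chromosome 4) to 0.18 (chromosome 17).

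The ends of chromosomes 17 and 18 had the highest medians in myotubes, at 0.18 and 0.17, and both also had the highest median ratios in pro-B cells. These comparisons share the untreated ES library, in which both ends were low. With SB431542 the medians of the 18 ends ran from -0.13 (chromosome 16) to 0.09 (chromosome 17), with 14 below and 4 above 0. A median near 0 could hide local differences. The chromosome 1 end had a pro-B median of -0.04, with 8 of its 50 bins higher and 2 lower. Over all bins 12.4% were higher and 3.48% lower. More than 10 Mb from either end of chromosome 1, 259 of 1718 bins were higher. A run of 400 kb on this end (chr1:196569506-196969505) had a ratio of 1.51 (1.43 to 1.595). On chromosome 13 the median was 0.00 and the terminal bin had a ratio of 1.403 (1.28 to 1.54).

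Neighbouring bins past the rule formed runs. Runs were sought in the end bins only, so how common they are over all bins was not measured. Against untreated ES cells, pro-B cells had 14 runs of 3 or more higher bins, 73 bins on 8 ends, and 5 runs of lower bins, 19 bins on 3 ends. The longest were 1300 kb each. That on chromosome 17 (chr17:90177322-91477321) held 7281 positions in untreated ES cells, 8005 with SB431542, 7835 in myotubes and 12289 in pro-B cells, a pro-B ratio of 1.75 (1.70 to 1.81), and it reached the inner border of the end. That on chromosome 18 (chr18:86635978-87935977) held 6337, 6720, 6969 and 9257, with a ratio of 1.66 (1.61 to 1.72).

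Shorter pro-B runs of 500 kb lay on chromosomes 6, 8, 18 and 19. The run on chromosome 19 (chr19:60821130-61321129) was the only one of the 14 to include a terminal bin, with 2804, 2868, 2413 and 4077 positions and a ratio of 1.60 (1.52 to 1.67). On chromosome 6 (chr6:148925528-149425527) the run lay 100 kb from the end, with 3199, 3437, 2640 and 4403 positions and a ratio of 1.56 (1.49 to 1.64). On chromosome 8 (chr8:129283989-129783988) the ratio was 1.62 and on chromosome 18 (chr18:88035978-88535977) it was 1.60. In all 4 runs the pro-B level was the highest of the 4 libraries, from 1.27 to 1.79. That it was above untreated ES cells follows from how runs were called.

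Lower pro-B runs were on chromosomes 4, 2 and 8. The longest, 500 kb on chromosome 4 (chr4:153129641-153629640), held 3039 positions in untreated ES cells, 2766 with SB431542, 2249 in myotubes and 1634 in pro-B cells, a ratio of 0.624 (0.587 to 0.663). A second run on the same end (chr4:152329641-152729640) had a ratio of 0.649, and the runs on chromosome 2 (chr2:179226719-179626718 and chr2:178526719-178826718) had 0.650 and 0.678. The fifth, on chromosome 8 (chr8:128283989-128583988, ratio 0.660), overlapped a run that was lower in myotubes. The 4 runs on chromosomes 4 and 2 were lower in pro-B cells than in each of the other 3 libraries by level. For untreated ES cells this follows from how runs were called.

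Myotubes had 3 lower runs and no higher run against untreated ES cells. The longest was 900 kb on chromosome 8 (chr8:128183989-129083988), with 6982, 7008, 3751 and 3603 positions and a myotube ratio of 0.644 (0.619 to 0.670), and a second on that end (chr8:127183989-127483988) had 0.646 (0.601 to 0.694). The third lay on chromosome 2 (chr2:177126719-177426718), where few reads had 1 place: 105 positions in untreated ES cells, 99 with SB431542, 58 in myotubes and 77 in pro-B cells, levels of 0.035 to 0.060. There the 2-place lines numbered 334, 360, 241 and 233, more than the counted positions in each library. SB431542 gave no run in either direction.

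Between myotubes and pro-B cells there were 15 lower runs, 64 bins on 10 ends, and 1 higher run. Of the lower runs, 2 reached the end itself. On chromosome 6 the last 800 kb (chr6:148725528-149525527) held 4186 positions in myotubes and 6794 in pro-B cells, a ratio of 0.564 (0.542 to 0.586), with 5220 in untreated and 5585 in SB431542-treated ES cells. On chromosome 19 the last 500 kb had a ratio of 0.599 (0.570 to 0.630). A run on chromosome 8 (chr8:129083989-129883988) had 0.536, one on chromosome 10 (chr10:128357211-129057210) 0.663 and one on chromosome 6 (chr6:146325528-146825527) 0.504. The higher run was on chromosome 2 (chr2:178826719-179226718), at 1.47 (1.38 to 1.57).

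Single bins with the widest differences lay partly on other ends, since chromosomes 11 and 14 had no run between pro-B and untreated ES cells. The highest pro-B bin against untreated ES cells was chr6:146625528-146725527, with 599 positions in untreated ES cells, 594 with SB431542, 497 in myotubes and 1151 in pro-B cells, a log2 ratio of 1.13. It was followed by chr11:117998381-118098380 (663, 595, 604 and 1303 positions, 1.12), chr17:90777322-90877321 (537, 613, 627 and 1102 positions, 1.09) and chr11:118898381-118998380 (535, 507, 444 and 1021 positions, 1.07). In each of these 4 bins the pro-B library lay above the first 3, of which untreated ES cells were the basis of the ranking. Those 3 also differed among themselves. The ratio of myotube to untreated ES cells was 1.24 (1.10 to 1.395) in the chromosome 17 bin and 0.862 (0.764 to 0.972) in the chromosome 6 bin. In both chromosome 11 bins the interval of that ratio included 1.

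The lowest pro-B bins were chr4:153129641-153229640 (608, 536, 445 and 288 positions, log2 ratio -0.86) and chr14:120762956-120862955 (743, 580, 543 and 435 positions, -0.77). Next were chr2:179326719-179426718 (591, 542, 554 and 330 positions, -0.75) and chr4:153229641-153329640 (612, 528, 480 and 316 positions, -0.74). The chromosome 14 bin was also the lowest with SB431542, at -0.39, and stood at -0.43 in myotubes, so that untreated ES cells were above the other 3 libraries there. Other bins with low SB431542 ratios were chr16:94152317-94252316 (135, 111, 106 and 102 positions, -0.32), chr16:93252317-93352316 (-0.31) and chr11:118098381-118198380 (-0.30).

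The bins with the highest SB431542 ratios were chr14:122562956-122662955 (448, 566, 467 and 392 positions, 0.31), chr17:90577322-90677321 (0.27), chr3:155572051-155672050 (0.27) and chr17:94077322-94177321 (0.25). The widest differences from untreated ES cells among the end bins with a mean of 100 positions were thus under 0.4 with SB431542, and over 1 in myotubes and pro-B cells. In myotubes the highest bins stayed below 0.5, at 0.45 in chr17:91977322-92077321 (428, 498, 551 and 594 positions), 0.43 in chr3:155472051-155572050, 0.38 in chr17:92077322-92177321 and 0.38 in chr18:88335978-88435977. Of these 4, those on chromosomes 17 and 18 were at 0.51 to 0.71 in pro-B cells.

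Between myotubes and pro-B cells the lowest bins were chr6:145025528-145125527 (645, 720, 475 and 1163 positions, -1.42), the chromosome 6 bin named above (-1.34), chr11:118898381-118998380 (-1.19) and chr8:129583989-129683988 (773, 724, 482 and 912 positions, -1.17). The highest were chr2:179326719-179426718 (0.74), chr2:178626719-178726718 (0.65), chr2:179026719-179126718 (0.61) and chr4:151829641-151929640 (0.57). These high bins lay on the 2 ends with the lowest median pro-B ratios.

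By level, among end bins with a mean of at least 100 positions, chromosome 17 held 3 of the 5 lowest. The lowest was chr16:94152317-94252316, at 0.237 in untreated ES cells, 0.189 with SB431542, 0.190 in myotubes and 0.173 in pro-B cells. The chromosome 17 bins (chr17:93377322-93477321, chr17:92177322-92277321 and chr17:92877322-92977321) had levels of 0.238 to 0.416, and chr8:131883989-131983988, next to the terminal bin, 0.329 to 0.469. The highest were chr17:90177322-90277321 (1.14, 1.25, 1.22 and 2.40 in the 4 libraries), chr5:150802851-150902850 (1.28, 1.19, 1.18 and 2.21), the chromosome 13 terminal bin, chr5:148802851-148902850 (1.32, 1.38, 1.16 and 1.93) and chr6:146425528-146525527 (1.25, 1.17, 1.04 and 2.32). In all 5 the pro-B level was the highest. The ranking was by the mean over the 4 libraries, which high pro-B values raise, so this order follows in part from the choice.

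The lowest myotube bin of all ends lay on chromosome 9, 200 kb from the end (chr9:123700624-123800623). It held 766 positions in untreated ES cells, 748 with SB431542, 309 in myotubes and 414 in pro-B cells, log2 ratios to untreated ES cells of -1.17 in myotubes and -0.72 in pro-B cells. The next lowest myotube bins were on chromosome 8: chr8:128183989-128283988 (854, 850, 423 and 429 positions, -0.75), chr8:128383989-128483988 (-0.69) and chr8:127383989-127483988 (-0.68). Unlike those of chromosome 8, the chromosome 9 bin had neighbours without a like difference.

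The chromosome 9 difference came from 20 kb, a window chosen after its values had been seen (chr9:123770624-123790623). It held 545 positions in untreated ES cells, 525 with SB431542, 107 in myotubes and 166 in pro-B cells. The levels were 4.67 (4.29 to 5.08), 4.50 (4.13 to 4.91), 1.01 (0.827 to 1.22) and 1.60 (1.36 to 1.86). Both ES libraries thus held over 4 times the typical level of the chromosome, while myotubes were at it, and the ratio of myotube to untreated ES cells was 0.216 (0.174 to 0.266). The 80 kb on the outer side held 463, 471, 407 and 473 positions, close together, and the 40 kb on the inner side (chr9:123730624-123770623) held none in any library. An excess of DNA copies in the ES line and an excess of H3 per copy cannot be told apart without input DNA.

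**Figure D5:**
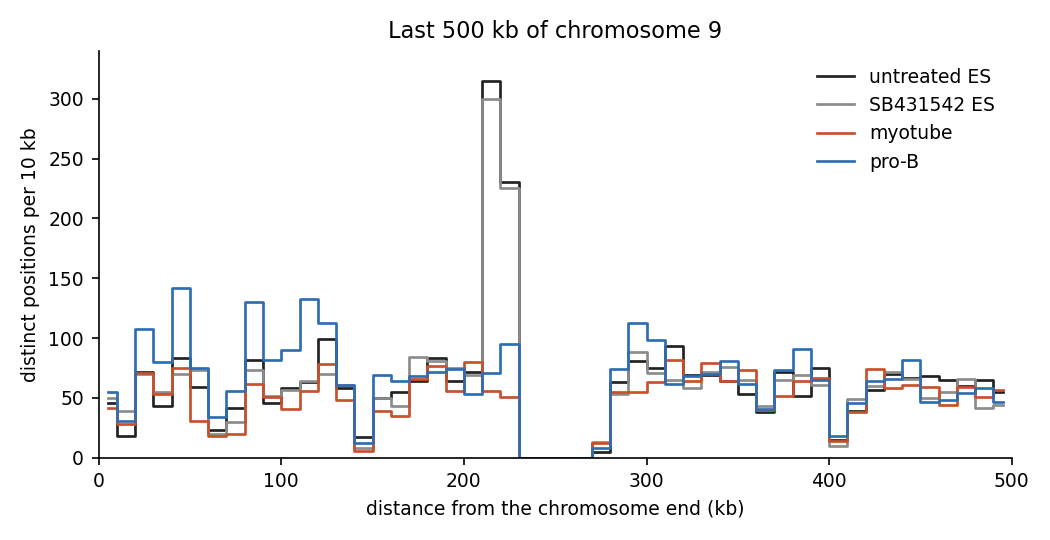
Distinct positions per 10 kb by distance in kb from the end of chromosome 9, with 1 line for each of the 4 libraries. Both ES libraries hold 525 or more positions at 210 to 230 kb, beside 40 kb without a position, and over the outer 130 kb the pro-B library has a level of 1.67, above the others.

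Further out on the same chromosome the pro-B library was the one that stood apart. In the outer 130 kb (chr9:123870624-124000623) the counts were 734 in untreated ES cells, 723 with SB431542, 626 in myotubes and 1129 in pro-B cells. The pro-B ratio was 1.72 (1.57 to 1.90), and that of myotubes was 0.938 (0.842 to 1.05), an interval that includes 1.

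Repeated reads at 1 position were counted as well. Positions with at least 10 reads were found at 2 of the 18 ends: on chromosome 2, where 11, 16, 5 and 24 positions held 177, 363, 102 and 443 reads (untreated ES, SB431542, myotube, pro-B), and on chromosome 19, where 1, 1, 1 and 7 positions held 12, 22, 16 and 144. On the other 16 ends no position had more than 9 reads. In the chromosome 2 terminal bin repeats made up 48.4%, 55.0%, 42.9% and 60.1% of the reads with 1 place. A window of 5 kb there (chr2:181856719-181861718) held 344, 517, 208 and 744 reads on 105, 125, 77 and 164 distinct positions. The distinct positions were dense there too, at 2.83 to 6.05 times the chromosome's typical level.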

How the data were processed

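The authors deposited 1 text file per library that lists the position of every aligned read, written as a negative number on the minus strand, without normalisation. Bowtie was the aligner and mm8 the genome, per the file headers, with up to 2 mismatches in a 36-base seed, a quality limit of 70 and at most 2 places per read. The aligner's version is not given in the sources used here. Of the 2 sections of each file, the first was read as reads with 1 place and the second as reads with 2 places, a reading inferred from the section names and line counts. Per the labels' protocols, chromatin was sonicated to an average of 500 bp, and 150 to 300 bp products were cut from a gel after 18 PCR cycles. The smallest deposited position on chromosome 9 was 3000000, so positions were read as counted from 0, and 1 was added to print them.

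Distinct positions of 1-place reads were counted per 100 kb bin and divided by the library's median bin of the same chromosome. Bins were compared by log2 ratio where both libraries had a position, and called at an absolute log2 ratio of at least 0.5. Intervals are exact Poisson for levels and exact conditional binomial for ratios. Bins were named as the 4 highest and 4 lowest per comparison, and the 5 highest and 5 lowest by level, with a mean of at least 100 positions. Runs were 3 or more neighbouring called bins, of which up to the 4 longest per comparison and direction were named, along with others chosen after their values were seen. The members and lists were chosen with earlier results of these data known. The alternatives were other scalings, bin sizes, end lengths, filters and read sets. The scaling and the calls, but not the counting of positions, were tested on simulated bin counts. Python 3.11.15, numpy 2.4.6, scipy 1.17.1, pandas 2.3.3 and matplotlib 3.10.9 were used.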

Additional observations from a re-analysis of the deposited data

Results flagged for a closer look

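Places were listed where the median log2 ratios of myotubes and pro-B cells to untreated ES cells were past 0.1 on opposite sides of 0. Besides the last 100 kb, only the ends of chromosomes 5, 6 and 10 among the 18 met this rule. The difference between the 2 comparisons was not tested, each rests on 1 library, and both share the untreated ES library. In the last 100 kb of the 18 ends the median log2 ratio to untreated ES cells was -0.3656 in myotubes and 0.2441 in pro-B cells. On the chromosome 6 end it was -0.1163 in myotubes and 0.3487 in pro-B cells over the last 5 Mb. On the chromosome 5 end the values were -0.1397 and 0.1239, and on the chromosome 10 end -0.1317 and 0.206.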

How the results depend on the processing

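No paired analysis was possible because each group had 1 library. The terminal difference kept its direction under every alternative tried: the median log2 ratio over ends was -0.40 to -0.30 for myotube against untreated ES cells in 11 alternatives, with 14 to 18 ends below 1 (14 of 15 where chromosomes 7, 8 and 15 were left out), and 0.13 to 0.33 for pro-B, with 11 to 14 above 1. These terminal alternatives, and those without chromosome 8 or without chromosomes 17 and 18, were chosen after seeing the data. Of the summary values of the whole ends, 127 kept to within the limits set, 35 moved and 2 changed sign; the cause was not tested. The median pro-B ratio (0.04297) was -0.07173 with scaling to the autosomal total and -0.03105 for the last 10 Mb. It was 0.01033 with median-of-ratios size factors, 0.08492 for the last 2 Mb, 0.08655 against SB431542-treated ES cells and 0.009447 without chromosomes 17 and 18. Scaling to the total moved the median of all pro-B bins from 0.04 to -0.09.

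With scaling to the total, the median levels were 1.062 (untreated ES), 1.012 (SB431542), 0.9996 (myotube) and 0.9861 (pro-B). The SB431542 ratio was then -0.05289 and the ratio of myotube to pro-B -0.01696. The share of called myotube bins was 6.585%, beside 6.097% over all bins. With median-of-ratios size factors the SB431542 ratio was -0.05304 and the myotube share 6.473%, beside 6.066% over all bins. For the last 2 Mb the SB431542 ratio was -0.02372. Its called share was 0 and the myotube share 1.955%, beside 0.5335% and 2.726% over all bins. For the last 10 Mb the pro-B level was 0.989 and the ratio of myotube to pro-B -0.04079. The SB431542 share was 0.3382%, beside 0.5335% over all bins. The SB431542 share (0.2232%, beside 0.5335% over all bins) was 0.1112% with 2-place reads added and 0.8949% in 50 kb bins. Over all bins the shares in those settings were 0.3251% and 0.8625%. Among end bins with a mean of at least 100 positions the SB431542 share was 0. With a rule of 0.3 the called shares were 1.116% (SB431542), 15.62% (myotube) and 40.47% (pro-B), beside 1.825%, 13.48% and 36.87% over all bins. For myotube against pro-B the called share under that rule was 41.63%, for which the share over all bins is not given here. Under the rule of 0.5 it was 18.42%, beside 17.55% over all bins.

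Without chromosomes 7, 8 and 15 the untreated ES level was 1.008 and the myotube ratio -0.0453. The myotube share was then 1.475%, beside 1.508% over all bins kept. Without chromosome 8 the myotube share of the end bins was 1.3%, all of it lower bins. Over all bins, with chromosome 8 included, 1.35% were lower. Against SB431542-treated ES cells the myotube ratio was -0.01848. Without chromosomes 17 and 18 the untreated ES level was 1.041 and the ratios were -0.04834 (SB431542), -0.08807 (myotube) and -0.07811 (myotube against pro-B). At the depth here, with a median bin of 392 to 723 positions, single-bin ratios carry wide counting intervals, and variation between cultures was not measured.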

Other observations

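In the last 500 kb, the summed myotube ratio to untreated ES cells was below 1 at 16 of 18 ends, with counting intervals below 1 at 14. It ran from 0.712 on chromosome 8 to 1.15 on chromosome 11, where the interval lay above 1. The pro-B ratio was above 1 at 14 of 18 ends over the same stretch, from 0.803 on chromosome 14 to 1.60 on chromosome 19.

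The last 200 kb of chromosome 7 held 1409 positions in untreated ES cells and 1223 with SB431542, levels of 1.27 and 1.12, a ratio of 0.878 (0.812 to 0.948), while myotubes stood at 1.19 and pro-B cells at 1.09. This window was chosen after its values had been seen.

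On the plus strand of chromosome 2, position 181858729, 68.0 kb from the end, held 24 reads in untreated ES cells, 67 with SB431542, 25 in myotubes and 37 in pro-B cells. Position 61319069 of chromosome 19, 2.06 kb from the end, held 12, 22, 16 and 44. Both positions were piled up in all 4 libraries.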
